A study of Mus musculus with 6 samples.

Results

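The collagen genes were described in cardiac mesenchymal cells of the mouse, which are stromal cells grown from the heart. Members were the protein-coding entries whose symbol is Col, a type number, the letter a and a chain number. This gave 44 of the 53460 genes in the deposited table, of 22039 that code for protein. Members whose status says that they held too many fragments to estimate were to be skipped, and 0 members had that status. The rule used the symbol and the gene class and no measured value.

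Total RNA was sequenced from the slowly adherent cell fraction of hearts of C57BL6/J mice that the labels call male. The 3 sham libraries came from mice that underwent thoracotomy without infarction. The 3 infarct libraries came from mice that underwent 60 min of ischemia, after which the coronary artery was reopened. All hearts were taken at 28 days after surgery. The cells had been grown on plastic, so the RNA is that of cultured cells and not of the scar itself. Whether libraries within a group stand for separate animals is not stated, and each p-value therefore reflects the variation among these 6 libraries alone, some of which may be technical. Infarct libraries are numbered as the columns of the table, which do not carry the sample numbers. Values are in FPKM, fragment counts adjusted for transcript length and for depth.

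Collagens are proteins of the extracellular matrix in which chains with a regular repeat of glycine wind into helical trimers. Fibroblasts and related stromal cells are the main source of fibrillar collagen in the heart, and collagen deposited after infarction forms the scar. Types I and III make up most cardiac fibrils, type V sets their diameter, type IV forms the sheets of basement membranes, and type VI forms beaded microfibrils around cells. Many trimers combine the products of different genes, as type I does.

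The DNA before the start sites of the collagen genes was taken from RefSeq promoters of build GRCm38.p6, which held 35 of the 44 members. Not matched were Col1a1, Col2a1, Col4a3, Col5a2, Col9a3, Col12a1, Col14a1, Col22a1 and Col26a1. Within 250 bases before the start, on either strand and with overlaps allowed, the GC box GGGCGG was found in 21 of the 35 collagen promoters, a share of 60.0%, against 32.9% of 27025 promoters. The CCAAT box was found in 12, or 34.3%, against 34.5%. The letters TATAAA were found in 5, or 14.3%, against 13.0%. The median GC content of the collagen windows was 59.6% against 52.0% over all promoters, so the GC box is compared across windows of unlike base composition.

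Stretches are shown for the abundant Col3a1, Col1a2, Col5a1 and Col8a1, for Col11a1, with a different order of libraries, and between Col4a3 and Col4a4. Each is the longest run within the 250 bases before the RefSeq start that overlaps no annotated exon, written 5′ to 3′ on the strand of the gene, with matches to the 3 motifs in capitals, and CCGCCC and ATTGG are GGGCGG and CCAAT read on the other strand.
Col3a1 (chr1:45311288-45311537, plus strand): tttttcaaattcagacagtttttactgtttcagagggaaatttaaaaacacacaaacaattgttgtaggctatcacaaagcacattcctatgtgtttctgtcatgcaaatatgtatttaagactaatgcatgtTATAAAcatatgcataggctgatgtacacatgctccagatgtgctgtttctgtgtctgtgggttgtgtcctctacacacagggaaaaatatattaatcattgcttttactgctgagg
Col1a2 (chr6:4505370-4505492, plus strand): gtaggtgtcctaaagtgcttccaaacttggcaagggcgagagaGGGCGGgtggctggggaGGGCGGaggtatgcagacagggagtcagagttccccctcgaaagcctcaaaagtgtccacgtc
Col5a1 (chr2:27886175-27886424, plus strand): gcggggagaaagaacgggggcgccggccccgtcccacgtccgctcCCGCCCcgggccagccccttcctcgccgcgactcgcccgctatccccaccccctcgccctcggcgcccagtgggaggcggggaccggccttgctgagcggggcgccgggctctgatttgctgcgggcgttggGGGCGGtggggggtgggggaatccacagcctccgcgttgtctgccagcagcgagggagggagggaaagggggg
Col8a1 (chr16:57754738-57754987, minus strand): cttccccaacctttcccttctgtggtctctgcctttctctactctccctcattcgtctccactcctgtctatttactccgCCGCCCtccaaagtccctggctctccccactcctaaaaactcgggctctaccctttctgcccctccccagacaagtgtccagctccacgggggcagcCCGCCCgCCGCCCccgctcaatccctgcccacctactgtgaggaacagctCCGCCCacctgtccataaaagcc
Col11a1 (chr3:114030290-114030539, plus strand): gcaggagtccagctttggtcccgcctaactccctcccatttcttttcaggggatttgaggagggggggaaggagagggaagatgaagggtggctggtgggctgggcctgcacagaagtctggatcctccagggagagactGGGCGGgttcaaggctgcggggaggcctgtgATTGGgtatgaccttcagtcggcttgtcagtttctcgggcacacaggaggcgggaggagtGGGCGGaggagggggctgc
Col4a4 (chr1:82586850-82586920, minus strand): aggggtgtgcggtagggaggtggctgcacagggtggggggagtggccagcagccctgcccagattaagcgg

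Of these stretches, that of Col3a1 held 1 match, to TATAAA. The stretch of Col8a1 held 4 matches to the GC box, all on the opposite strand, and those of Col1a2 and Col5a1 held 2 each. The stretch of Col1a2 precedes a RefSeq start at 4505618 and lies inside the gene as GENCODE annotates it, which begins at 4504814, whereas the other 5 stretches lie directly before the annotated gene. Col11a1 held 2 GC boxes and 1 CCAAT box, and the 71 bases between Col4a3 and Col4a4 held none of the 3 motifs. A match describes the letters and is not evidence of a bound factor.

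Depth estimated from the steps of the lowest values was 21.8 to 30.2 M fragments per library. The libraries held 12543 to 12699 genes at 1 FPKM or more. The sex-linked genes went against the label male in sham libraries, while infarct libraries held both Xist and Y-linked RNA. Xist, the RNA of the inactive X chromosome in female cells, stood at 102 to 111 FPKM in sham and 63.1 to 89.9 FPKM in infarct libraries. The Y-linked Ddx3y reached at most 0.105 FPKM in sham libraries and 6.07, 0.451 and 1.65 FPKM in infarct libraries 1 to 3. Eif2s3y, also Y-linked, reached at most 0.225 FPKM in sham libraries and 10.6, 0.804 and 2.27 FPKM in infarct libraries 1 to 3. The sex signal thus differs between the groups and cannot be told apart from infarction. Its part in the collagen values, those of the X-linked Col4a5 and Col4a6 included, was not tested. Fibroblast genes were present, with 9 of 10 markers past the filter, and the most abundant was S100a4, at 2593 to 4475 FPKM. The marker under the filter was Lum, which is also in the list of fibril-binding genes, at 0.0203 to 0.550 FPKM. Macrophage, lymphocyte and erythroid markers did not pass the filter (0 of 7, 0 of 4 and 0 of 4), and Adgre1, C1qa, Cd3e, Nkg7 and the myocyte genes Myh6, Nppa and Myl7 were at 0 in all 6 libraries. Of the 9 myocyte markers 1 passed the filter, Tnnt2, at 16.7 to 53.2 FPKM in sham and 14.3 to 20.4 FPKM in infarct libraries. Endothelial markers moved with the groups. Their summed level, over 12 genes, was 95.4 to 412 FPKM in sham and 11.05 to 28.2 FPKM in infarct libraries. Of these markers 10 were tested and all 10 had negative changes without overlap of the groups, with a smallest adjusted p of 0.279 by limma. Tie1, Robo4 and Cldn5 were at 0 in infarct library 2, and Cldn5 also in infarct library 1. Myofibroblast and smooth muscle markers, of which 4 of 6 were tested, all had positive changes with none called, and their summed level was 511 to 805 FPKM in sham and 549 to 869 FPKM in infarct libraries. The largest of these changes, 1.30 with an adjusted p of 0.963 by limma, was that of Actg2, a low gene in that sum. It was at 1.34 to 3.68 FPKM in sham and 4.95 to 13.1 FPKM in infarct libraries, without overlap. Cycling cell markers moved within the groups. Their summed level, over 8 genes, was highest in infarct library 1 at 309.9 FPKM and sham library 2 at 264 FPKM, and between 105 and 161 FPKM in the other 4 libraries. In bulk RNA, fewer cells of a type and less RNA per cell cannot be told apart.

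Of the 44 collagen genes, 23 reached 1 FPKM in at least 3 libraries, and these same 23 reached it in every library, so none passed through 1 group alone. Of the other 21, 18 were under 1 FPKM in every library, and Col11a2, Col4a3 and Col4a4 lay on either side of it. Means over all libraries reached 100 FPKM in 9 genes and 50 FPKM in 14. Summed over the members, collagen RNA took 1.11%, 0.848% and 1.39% of protein-coding FPKM among sham libraries 1 to 3, and 0.931%, 1.34% and 1.44% of it among infarct libraries 1 to 3. The group means were 1.12% ± 0.273 and 1.24% ± 0.270 (SD, n = 3 each, as for all values with a ±), and the groups overlapped. Sham library 2 and infarct library 1 held the lowest shares. Fibrillar collagens made up 61.4% to 66.2% of the collagen FPKM, type IV 16.3% to 21.6%, types VIII and X 6.18% to 7.68%, types VI and VII 5.15% to 7.65%, fibril-associated collagens 2.48% to 3.21% and the multiplexins 1.12% to 3.08%.

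**Figure D1:**
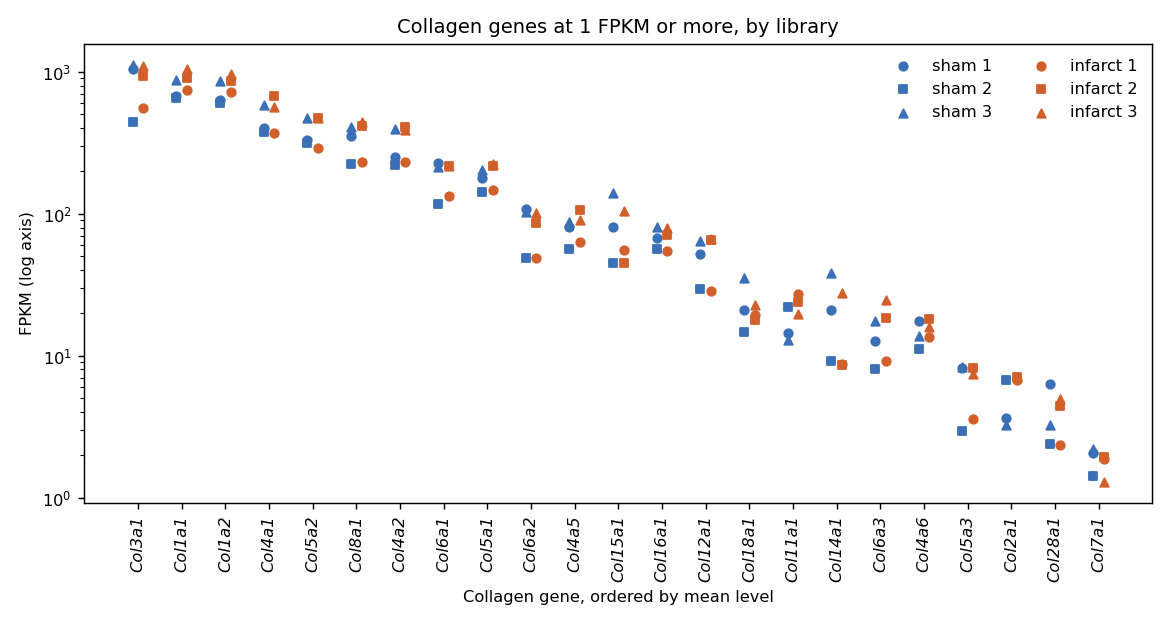
FPKM on a log axis of the 23 collagen genes at 1 FPKM or more, ordered by mean level, with 1 point per library (blue sham, orange infarct; circle, square and triangle for libraries 1, 2 and 3). For most genes the blue square (sham library 2) and the orange circle (infarct library 1) are the lowest points, and the groups overlap in all but Col2a1.

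The chains of types I and III were the most abundant collagen RNAs. Col3a1 (chromosome 1, 45311538 to 45349706, plus strand), the gene of the single chain of type III, was at 1044, 440.4 and 1119 FPKM in sham and 552, 932 and 1099 FPKM in infarct libraries, each time in the order of libraries 1, 2 and 3, as in all lists of 3 values that follow. Sham library 2 and infarct library 1 were low, and the other 4 libraries lay close together. Col1a1 (chromosome 11, 94936224 to 94953042, plus strand), the gene of the alpha 1 chain of type I, was at 676, 650.3 and 869.9 FPKM in sham and 749, 907 and 1041 FPKM in infarct libraries. Col1a2 (chromosome 6, 4504814 to 4541544, plus strand), the gene of its alpha 2 chain, was at 638, 601 and 854 FPKM in sham and 723, 865 and 958 FPKM in infarct libraries. For both type I genes, sham library 3 lay among the infarct values and the groups overlapped. By mean level the 3 genes ranked 46, 52 and 59 among all protein-coding genes.

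Type V collagen nucleates fibrils and limits their width. Col5a2, the gene of its alpha 2 chain, was at 331, 315 and 474 FPKM in sham and 290.2, 471 and 471 FPKM in infarct libraries. Col5a1, the gene of its alpha 1 chain, was at 179.6, 142 and 205 FPKM in sham and 147, 217 and 222 FPKM in infarct libraries. Both were lowest in sham library 2 and infarct library 1. Col5a3, the gene of a less common type V chain, was at 2.94 to 8.36 FPKM in sham and 3.57 to 8.15 FPKM in infarct libraries. Col5a2 lies tail to tail with Col3a1, with 24614 bases between the annotated genes.

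Col2a1 and Col11a1, genes of the fibrils of cartilage, were lower than the type I genes and ordered the libraries differently. Col11a1 (chromosome 3, 114030540 to 114220718, plus strand) was at 14.4, 22.1 and 12.9 FPKM in sham and 27.1, 24.0 and 19.7 FPKM in infarct libraries. Infarct library 1 was here the highest library, sham library 2 the highest sham library, and the groups overlapped. Col2a1 (chromosome 15, 97975602 to 98004695, minus strand) was at 3.64, 6.71 and 3.26 FPKM in sham and 6.73, 7.03 and 7.10 FPKM in infarct libraries. Its groups did not overlap, but sham library 2 lay just under the lowest infarct library. The other fibrillar genes, Col11a2, Col27a1 and Col24a1, stayed under the filter, at 0.321 to 1.68, 0.436 to 0.818 and 0.00935 to 0.177 FPKM.

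The 6 type IV genes lie as 3 neighbouring pairs, each head to head. Their levels ranked by pair without overlap between pairs, although Col4a5 and Col4a6 lay well apart. Annotated Col4a1 (chromosome 8, 11198423 to 11312826, minus strand) and Col4a2 (11312805 to 11449287, plus strand) overlap by 22 bases at their starts. Col4a1, which encodes the main chain of basement membranes, was at 399, 376 and 582 FPKM in sham and 369, 672 and 562 FPKM in infarct libraries. Col4a2, which encodes its partner chain, was at 249.96, 220.4 and 393 FPKM in sham and 229.8, 411 and 389 FPKM in infarct libraries. In both, sham library 2 and infarct library 1 were the lowest libraries and the groups overlapped. The table gives both genes 1 merged locus (11187754 to 11449287), and whether reads were counted by strand is not given in the sources used here, so the assignment of reads near the shared start is uncertain.

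Col4a5 and Col4a6, on chromosome X with 1308 bases between them, ranked in the middle. Col4a5 was at 80.3, 56.7 and 87.6 FPKM in sham and 63.4, 106 and 89.98 FPKM in infarct libraries. Col4a6 was at 11.1 to 17.6 FPKM in sham and 13.5 to 18.3 FPKM in infarct libraries, and Col4a5 was 4.58 to 6.37 times as high as Col4a6 within a library. The kidney and lung chains Col4a3 and Col4a4, on chromosome 1 with the 71 bases shown above between them, ranked lowest. Col4a4 was at 1.32, 0.491 and 1.58 FPKM in sham and 0.358, 0.421 and 0.631 FPKM in infarct libraries, an estimated 90.0 to 472 fragments. Col4a3 was at 0.978, 0.507 and 1.20 FPKM in sham and 0.203, 0.471 and 0.597 FPKM in infarct libraries. In both genes sham libraries 1 and 3 were the highest, while sham library 2 lay among the infarct libraries.

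**Figure D2:**
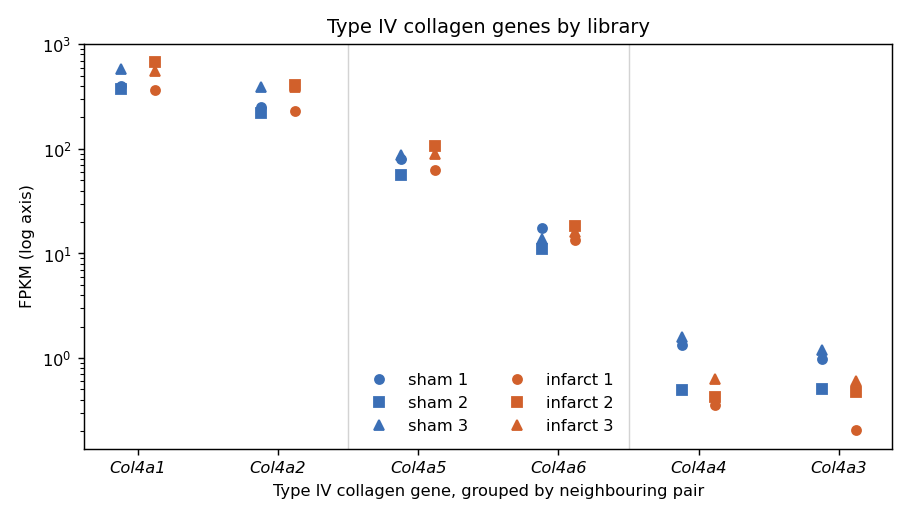
FPKM on a log axis of the 6 type IV collagen genes, set side by side as the 3 head to head pairs, with 1 point per library (blue sham, orange infarct; circle, square and triangle for libraries 1, 2 and 3). Col4a1 and Col4a2 lie at 220.4 to 672 FPKM, Col4a5 and Col4a6 at 11.1 to 106 FPKM and Col4a4 and Col4a3 at 0.203 to 1.58 FPKM.

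Type VI collagen forms its microfibrils from chains of 3 genes. Col6a1 was at 229, 118 and 214 FPKM in sham and 134, 217 and 217 FPKM in infarct libraries. Col6a2 was at 108, 49.1 and 103 FPKM in sham and 49.1, 86.6 and 101 FPKM in infarct libraries. Col6a3, the gene of the longest of these chains, was lower, at 12.6, 8.03 and 17.6 FPKM in sham and 9.11, 18.5 and 24.9 FPKM in infarct libraries. All 3 were lowest in sham library 2 and infarct library 1. The later chains Col6a4, Col6a5 and Col6a6 did not exceed 0.143, 0.0148 and 0.00561 FPKM in any library.

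Col8a1, the gene of a short chain collagen found in vessel walls and the cornea, ranked sixth among the collagen genes. It was at 353, 225 and 406 FPKM in sham and 233, 414 and 442 FPKM in infarct libraries. Col8a2, its partner chain, was at only 0.0846 to 0.427 FPKM, far under Col8a1 in every library. Col10a1, the marker of hypertrophic cartilage, was at 0.336, 0.133 and 0.134 FPKM in sham and 0.0267, 0.124 and 0.0969 FPKM in infarct libraries, without overlap, on an estimated 1.98 to 23.8 fragments. Col7a1, the gene of the anchoring fibrils of skin, was the lowest gene past the filter, at 2.05, 1.42 and 2.21 FPKM in sham and 1.89, 1.93 and 1.29 FPKM in infarct libraries.

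Fibril-associated collagens decorate the surface of fibrils. Col16a1 was at 68.0, 56.1 and 81.3 FPKM in sham and 55.05, 71.1 and 78.7 FPKM in infarct libraries. Col12a1 was at 52.0, 29.7 and 63.9 FPKM in sham and 28.4, 64.8 and 66.2 FPKM in infarct libraries. Col14a1 was the member with the widest spread within groups, at 20.9, 9.20 and 38.1 FPKM in sham and 8.80, 8.56 and 27.8 FPKM in infarct libraries. Library 3 of each group was the highest for Col14a1. The others of this class, Col9a1, Col9a2, Col9a3, Col19a1, Col20a1 and Col22a1, stayed under 1 FPKM, with a highest value of 0.814 FPKM for Col9a3 in infarct library 3.

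The multiplexins Col15a1 and Col18a1 belong to basement membrane zones, and Col18a1 is the source of endostatin. Col15a1 was at 80.9, 44.9 and 141 FPKM in sham and 55.8, 44.9 and 104 FPKM in infarct libraries. Col18a1 was at 21.1, 14.6 and 35.5 FPKM in sham and 19.4, 17.9 and 22.7 FPKM in infarct libraries. Both were highest in sham library 3 and overlapped between groups. Endothelial cells also express these genes and those of type IV, and the summed endothelial markers given above were lower in every infarct library; their part in these values was not tested. Col28a1, a collagen with von Willebrand factor domains, was at 6.33, 2.38 and 3.26 FPKM in sham and 2.36, 4.42 and 4.95 FPKM in infarct libraries. The transmembrane collagens Col13a1, Col17a1, Col23a1 and Col25a1 and the remaining Col26a1 stayed at or under 0.632 FPKM, and Col26a1 was at 0 in 5 of 6 libraries.

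Collagen levels were widely spread within groups. The members tested had a median within-group SD of 0.45 on the log2(FPKM + 1) scale, against 0.17 over all 12720 genes tested. Among members the SD ran from 0.21 for Col7a1 to 0.94 for Col14a1, with 0.23 for Col1a1 and 0.64 for Col3a1. Sham library 2 and infarct library 1 were the lowest libraries for 15 of the 23 genes, or 65.2%, a pattern seen in 20.4% of all genes tested. They were the highest libraries for 0 of the 23, against 19.6% of all genes. These 2 libraries were singled out after the values were seen, so the shares describe a pattern and do not test it. Sister chains such as Col4a1 and Col4a2 varied together and are not separate cases. Relative to the mean of each gene over the 6 libraries, the median member lay at 0.03, -0.47 and 0.28 on the log2 scale among sham libraries and at -0.38, 0.25 and 0.31 among infarct libraries. The median of all genes stayed within 0.01 of 0 in each library. On the same scale the median of the 8 cycling cell markers lay at -0.25, 0.56 and -0.68 among sham libraries and at 0.75, -0.40 and -0.11 among infarct libraries. The libraries with low collagen levels were thus those with high cycling markers, as a description of 6 libraries, and the part of cycling in the collagen levels was not tested. The same libraries also had the highest summed endothelial markers of their groups, at 412 and 28.2 FPKM, whose part was not tested either.

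**Figure D3:**
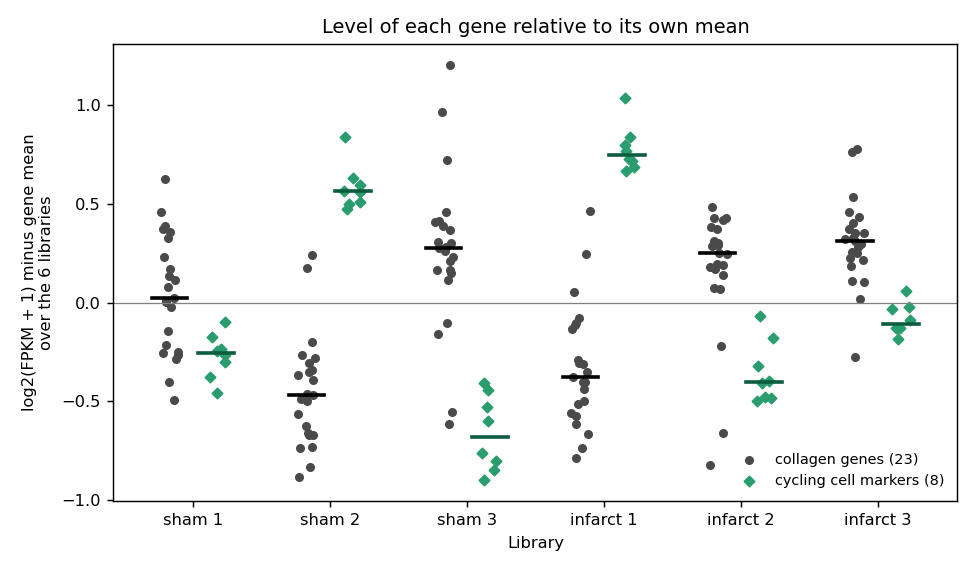
Level of each gene in each library as log2(FPKM + 1) minus the mean of that gene over the 6 libraries, for the 23 collagen genes tested (grey circles) and the 8 cycling cell markers (green diamonds), with bars at the medians. In sham library 2 and infarct library 1 the collagen medians are -0.47 and -0.38 and the marker medians 0.56 and 0.75.

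Ratios between the main chains of types I, IV, V and VI varied less than the levels of the same genes in 4 pairs. The ratio of Col1a1 to Col1a2 was 1.06, 1.08 and 1.02 for sham libraries, then 1.04, 1.05 and 1.09 for infarct libraries. Its highest value was 1.07 times its lowest, while Col1a1 itself ranged over 1.60 times. The ratio of Col4a1 to Col4a2 was 1.60, 1.71 and 1.48 for sham libraries, then 1.60, 1.64 and 1.44 for infarct libraries, a range of 1.18 times against 1.82 for Col4a1. The ratio of Col5a1 to Col5a2 was 0.543, 0.449 and 0.431 for sham libraries, then 0.508, 0.461 and 0.471 for infarct libraries, a range of 1.26 times. The ratio of Col6a1 to Col6a2 ran from 2.07 to 2.73, a range of 1.32 times. These ratios do not depend on the scaling of a library.

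Other ratios were wider, some of them only slightly. The ratio of Col6a3 to Col6a1 was 0.0552, 0.0681 and 0.0822 for sham libraries, then 0.0679, 0.0852 and 0.115 for infarct libraries, a range of 2.08 times against 1.94 for Col6a1 itself. Among pairs added after the values were seen, Col4a5 to Col4a6 ranged over 1.39 times, against 1.86 for Col4a5 and 1.65 for Col4a6. The low Col4a4 to Col4a3 ranged over 1.97 times. The ratio of Col3a1 to Col1a1 was 1.54, 0.677 and 1.29 for sham libraries, then 0.737, 1.03 and 1.06 for infarct libraries, lowest in sham library 2 and infarct library 1. The ratio of Col5a1 to Col1a1 ran from 0.197 to 0.266, a range of 1.35 times. Col5a1 itself ranged over 1.57 and Col1a1 over 1.60 times, so a narrower ratio was not confined to chains of 1 type. In all 7 ratios the groups overlapped. The exact two-sided permutation tests over the 20 assignments of libraries gave p from 0.200 for Col6a1 to Col6a2, with a difference of 0.16 on the log2 scale, to 0.900 for Col1a1 to Col1a2, with a difference of 0.01. Adjusted over the 7 ratios the p-values were 0.700 to 0.900, in a design that cannot go below 0.1 unadjusted. The ratio of Col8a1 to Col8a2 was not used because Col8a2 was under 1 FPKM.

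**Figure D4:**
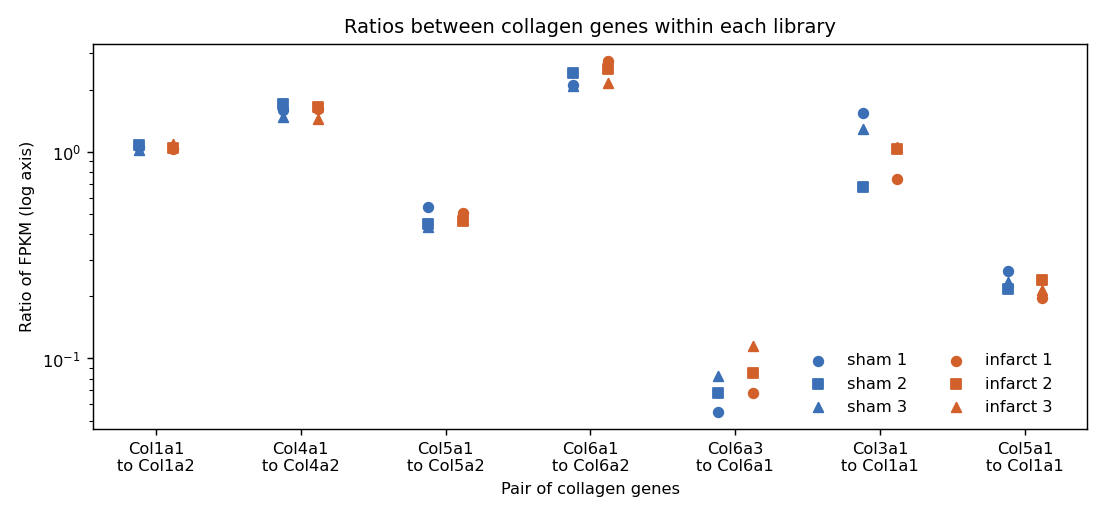
Ratio of FPKM of 2 collagen genes within each library on a log axis, for 7 pairs (blue sham, orange infarct; circle, square and triangle for libraries 1, 2 and 3). Col1a1 to Col1a2 keeps between 1.02 and 1.09, whereas Col3a1 to Col1a1 runs from 0.677 to 1.54.

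The comparison of infarct with sham libraries asks whether cells from both kinds of heart differ in collagen RNA. With limma on log2(FPKM + 1), 0 of the 23 collagen genes passed an adjusted p of 0.05, where 0.0236% of all 12720 genes did, 0.0157% as higher and 0.00786% as lower in infarct libraries. At an unadjusted p under 0.05 there were 2 members, Col2a1 and Col11a1, against 3.58% of all genes. The groups did not overlap for 1 of the 23 members tested, Col2a1, against 7.81% of all genes tested. Among the members under the filter, Col10a1 also had separate groups, at the low levels given above. The change on the log2 scale was positive for 17 of the 23 and for 55.3% of all genes. Among the positive members, Col3a1, Col5a3 and Col28a1 had slightly lower mean FPKM in infarct libraries, so their sign depends on the scale. The median change was 0.13 over the members and 0.02 over all genes. Without sham library 2 the median over the members was -0.11, so its sign rests on that library. Without infarct library 1 it was 0.34, without sham library 3 it was 0.29 and without sham library 1 it was 0.21. Without infarct library 2 it was 0.011, and without infarct library 3 it was 0.0097. Without both sham library 2 and infarct library 1, an alternative chosen after seeing the data, it was 0.18 with 15 of 23 positive, and again 0 members passed.

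By class, all 8 fibrillar genes tested and all 4 type IV genes tested had positive changes, with medians of 0.22 and 0.21, while both multiplexins had negative changes, with a median of -0.24. Of the 4 genes of types VI and VII, 2 were positive and 2 negative. Of the 3 fibril-associated genes, 1 was positive and 2 negative. None of these signs carried a call. Of the marker lists, the 4 myofibroblast and smooth muscle genes tested all had positive changes, with a median of 0.54, whereas the 9 cardiac fibroblast genes tested were 3 positive and 6 negative, with a median of -0.14. None of either list was called, and their part in the collagen values was not tested. Among the fibroblast markers, Thy1, a surface protein gene, was at 279 to 309 FPKM in sham and 196 to 264 FPKM in infarct libraries, without overlap, and Dcn is described with the fibril-binding genes. The counts by collagen class give the signs of changes of any size, none of them called, and sister chains such as Col1a1 and Col1a2 varied together.

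The largest positive change was that of Col2a1, from 4.54 ± 1.90 to 6.96 ± 0.197 FPKM, a log2 change of 0.57 (SE 0.22, adjusted p 1.00 by limma). Without sham library 2, its highest sham library, the change was 0.84 with an adjusted p of 0.456 by limma. That was the largest change with 1 library left out, and the smallest was 0.41, without sham library 3. Col11a1 stood at 16.4 ± 4.92 and 23.6 ± 3.73 FPKM, a change of 0.52 with an SE of 0.21. Without sham library 2 it was 0.74, with an adjusted p of 0.772 by limma. Here too that was the largest such change, and the smallest was 0.37, without sham library 3. Col1a1 stood at 732 ± 120 and 899 ± 146 FPKM, a change of 0.30 with an interval from -0.10 to 0.69. Col1a2 stood at 697 ± 137 and 849 ± 119 FPKM, with an interval from -0.11 to 0.69. Col6a3 stood at 12.8 ± 4.78 and 17.5 ± 7.93 FPKM, with an interval from -0.54 to 1.31. All intervals are 95% intervals of the log2 change and are not adjusted for the number of genes. For both type I genes the interval ends at 0.69 and includes 0.

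Among members with negative changes the smallest unadjusted p belonged to Col14a1, at 22.7 ± 14.5 and 15.05 ± 11.04 FPKM, with a change of -0.56 and an interval from -1.97 to 0.84. Col15a1 stood at 88.9 ± 48.6 and 68.4 ± 31.6 FPKM, with a change of -0.32 and an interval from -1.40 to 0.77. Col18a1 stood at 23.7 ± 10.7 and 19.99 ± 2.45 FPKM, Col6a2 at 86.9 ± 32.9 and 78.8 ± 26.6 FPKM, and Col7a1 at 1.89 ± 0.419 and 1.70 ± 0.355 FPKM. Each of these 5 genes had overlapping groups. Col3a1, the most abundant member, stood at 868 ± 372 and 861 ± 280.05 FPKM, with a change of 0.05 and an interval from -0.92 to 1.02. Its mean FPKM was slightly lower in infarct libraries while its log2 change was positive, and its wide interval spans both directions. Without sham library 2 the change of Col3a1 was -0.39, and without infarct library 1 it was 0.34.

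**Figure D5:**
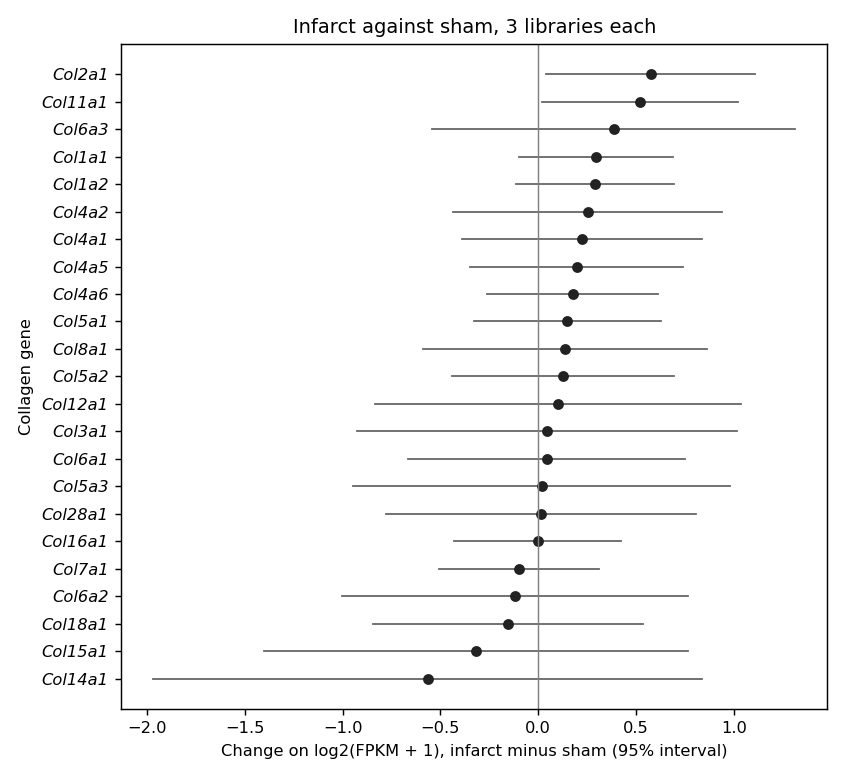
Infarct minus sham difference of each of the 23 collagen genes tested, in log2(FPKM + 1), as a point with its unadjusted 95% interval from limma. The intervals of Col2a1 and Col11a1 lie above 0, those of the other 21 genes include 0, and that of Col14a1 is the widest, from -1.97 to 0.84.

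In the authors' deposited table, 1 of the 29 collagen genes that were tested there passed a q of 0.05, where 1.66% of all 14922 tested genes did. This was Col4a4, at group values of 1.16 and 0.482 FPKM in the authors' deposited table, with a p of 5e-05 and a q of 0.00178. Next in the authors' deposited table were Col11a1 with a q of 0.0628 and Col2a1 with a q of 0.0914. Col4a4 was under the filter used with limma. Without the filter limma gave it a change of -0.50 (SE 0.22, adjusted p 1.00), and its groups overlapped through sham library 2. The neighbouring Col4a3 had a change of -0.40 with an SE of 0.18 in that fit, and a q of 0.787 in the authors' deposited table.

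Genes that make, fold, cut and take up collagen were read from 7 lists, of which 86 of 89 genes were in the table and 74 were tested. With limma 0 of the 74 passed in either direction, and 3 had an unadjusted p under 0.05, Adamts14, Tgm2 and Dcn. The groups did not overlap for 6 of them, beside 7.81% of all genes. Their median change was 0.05, with 49 positive and 25 negative. Adamts14, the gene of a protease that removes the amino end of procollagen, was at 2.15, 3.02 and 2.61 FPKM in sham and 4.19, 5.82 and 4.20 FPKM in infarct libraries. Its groups did not overlap, and its change was 0.67 (SE 0.16, adjusted p 0.691 by limma). Tgm2, the gene of a crosslinking transglutaminase, was at 7.96 to 9.22 FPKM in sham and 9.99 to 12.4 FPKM in infarct libraries, also without overlap. Pcolce, the gene of an enhancer of procollagen cleavage, was at 181 to 295 FPKM in sham and 293 to 323 FPKM in infarct libraries. Of the 12 tested genes of cleavage and crosslinking, 9 had positive changes, with a median of 0.16.

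Among the 17 tested genes of hydroxylation and folding, 12 were positive, with a median of 0.05. P4ha2 and P4ha3 encode catalytic chains of prolyl hydroxylase, which stabilises the helix. P4ha2 was at 23.1 to 28.4 FPKM in sham and 27.7 to 49.0 FPKM in infarct libraries. P4ha3 was at 22.8 to 31.0 FPKM in sham and 30.8 to 36.7 FPKM in infarct libraries. P3h2, another prolyl hydroxylase gene, was at 0.890 to 2.32 FPKM in sham and 0.723 to 1.45 FPKM in infarct libraries. Of the 7 tested secretion genes 6 were positive, with a median of 0.07. In that list Creb3l1, a transcription factor gene that acts on procollagen secretion, was at 16.3 to 25.7 FPKM in sham and 23.1 to 26.5 FPKM in infarct libraries, Sar1b at 34.0 to 35.1 and 35.3 to 40.4 FPKM and Sec13 at 79.6 to 84.3 and 81.0 to 91.7 FPKM. Among these only Sar1b had separate groups.

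Genes of collagen breakdown and uptake, listed with the protease inhibitor genes Timp1, Timp2 and Timp3, were 3 positive and 5 negative of 8, with a median of -0.03. The inhibitor genes had changes of -0.05, -0.08 and -0.14, so the signs of this list do not give a direction of breakdown. Mrc2, the gene of a collagen uptake receptor, was at 97.8 to 167 FPKM in sham and 123 to 184 FPKM in infarct libraries, the gelatinase gene Mmp2 at 76.6 to 88.6 and 75.5 to 78.6 FPKM and the cathepsin gene Ctsk at 12.7 to 24.0 and 15.7 to 25.8 FPKM. Collagen receptors were 3 positive and 3 negative of 6, with a median of 0.01. Itga2, a collagen integrin gene, was at 1.30 to 2.18 FPKM in sham and 0.677 to 1.28 FPKM in infarct libraries, without overlap. The receptor kinase gene Ddr2 was at 96.3 to 162 and 131 to 174 FPKM and the fibrillar collagen integrin gene Itga11 at 7.88 to 32.0 and 11.3 to 32.3 FPKM.

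Fibril-binding genes were 7 positive and 2 negative of 9, with a median of 0.08. Dcn, the gene of the fibril-coating proteoglycan decorin, was at 34.4, 18.4 and 27.1 FPKM in sham and 13.7, 18.2 and 18.4 FPKM in infarct libraries. Its change was -0.61 (SE 0.23, adjusted p 1.00 by limma), and sham library 2 lay just above the highest infarct library. Thbs2 was at 9.998 to 19.5 and 15.6 to 25.5 FPKM and Fbln1 at 8.26 to 11.01 and 10.002 to 14.9 FPKM. TGF-beta ligands, receptors and Smads, which drive collagen transcription, were 9 positive and 6 negative of 15, with a median of 0.04. Smad2 was at 19.1 to 20.7 FPKM in sham and 21.4 to 23.4 FPKM in infarct libraries, without overlap. Tgfb1 was at 18.4 to 26.0 and 17.1 to 19.2 FPKM and the receptor gene Tgfbr2 at 34.1 to 48.1 and 30.7 to 37.8 FPKM.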

How the data were processed

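The authors deposited FPKM values for each library and for each group, with p-values and q-values of their own test, per the file headers, whose form is that of Cuffdiff's gene test. Trimmomatic 0.36, HISAT2, SAMtools, Cufflinks, StringTie, Cuffdiff and the build GRCm38 are named, without their roles, per the submitters' processing notes. The annotation version and the counting by strand are not given in the sources used here.

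Entries of 14 genes listed with too many fragments to estimate were left out, and entries sharing a symbol were summed. The comparison used limma 3.58.1 (R 4.3.3), with values as log2(FPKM + 1) and the prior variance as a trend on mean level. It covered 12720 genes that reached 1 FPKM in 3 libraries or more, two-sided, with Benjamini-Hochberg adjustment over all of them and a threshold of 0.05. Changes on this scale understate those of low genes. On simulated data for this comparison with 12720 genes, the test recovered 10.4%, 76.0% and 97.6% of genes changed by 0.5, 1 and 2 on the log2 scale. The changed genes, 200 in each set, were drawn from all genes tested, whose median within-group SD was 0.17 against 0.45 for the members. These shares are therefore not those for collagen genes, whose recovery was not simulated on its own. Ratios within libraries were compared by exact permutation. Depth was estimated from steps in the low values of genes with 1 transcript, with 98.3% to 98.9% of them no more than 0.1 from whole fragments (chance spacing gives 20%), and it covers counting error only. Gene positions are from GENCODE M21 (GRCm38). The locus in the table was that of the annotated gene for 34 of the 44 members and wider for the others, Col4a1, Col4a2, Col5a1, Col15a1 and Col18a1 among those tested, so reads of genes overlapping them are uncertain.

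The members and lists were chosen with earlier results of these data known. The rule for named genes gave values in every library for members at a mean of 50 FPKM or more and for the 5 with the smallest unadjusted p in each direction, and up to 3 genes from each pathway list. Other steps ran in Python 3.11.15 with scipy 1.17.1, numpy 2.4.6 and pandas 2.3.3, and plots with matplotlib 3.10.9. Other pseudocounts, filters, scalings and left-out libraries were tried.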

Additional observations from a re-analysis of the deposited data

How the results depend on the processing

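The count of 0 collagen genes called by limma held with pseudocounts of 0.1 and 0.01, no filter, a filter of 5 FPKM, 3 other scalings, no intensity trend, each library left out, and sham library 2 and infarct library 1 left out together. The q-values of the authors' deposited table gave 1 collagen gene and 247 genes in all, against 3 genes by limma, where no filter gave 1, leaving out sham library 2 and infarct library 1 together gave 0, and leaving out 1 library gave 1 to 14. The cause of these differences was not tested. Of 138 values for single collagen genes with 1 library left out, 27 changed direction, in 11 of 23 genes, and 0 passed the threshold. Leaving out the 2 libraries together turned Col16a1 to 0.0085 and Col3a1, Col5a3 and Col6a1 to -0.095, -0.083 and -0.027.

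Leaving out 1 library at a time gave ranges of -0.11 to 0.34 for the median of the members, -0.39 to 0.34 for Col3a1, -0.40 to 0.33 for Col5a3, -0.26 to 0.27 for Col6a1, -0.48 to 0.19 for Col6a2, -0.21 to 0.49 for Col12a1, -0.73 to 0.086 for Col15a1, -0.14 to 0.14 for Col16a1, -0.44 to 0.17 for Col18a1, -0.23 to 0.33 for Col28a1, -0.22 to 0.017 for Col7a1 and -0.11 to 0.43 for Col8a1. Among ratios the log2 difference ranged from -0.019 to 0.025 for Col1a1 to Col1a2, -0.083 to 0.026 for Col4a1 to Col4a2 and -0.042 to 0.12 for Col5a1 to Col5a2. The collagen share ranged from 0.981% to 1.25% in sham and 1.13% to 1.39% in infarct libraries, and was 0.592% and 0.629% of the FPKM of all genes. No paired analysis was possible because nothing in the labels ties a sham to an infarct library, and the infarct columns do not carry the label numbers.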

Other observations

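Col11a1 encodes a chain that can join type V chains in fibrils, and its level relative to Col5a1 was compared within libraries after the values were seen. The ratio was 0.0804, 0.156 and 0.0628 for sham libraries 1 to 3, then 0.184, 0.111 and 0.0885 for infarct libraries 1 to 3. It was highest in infarct library 1 and sham library 2, the libraries with the highest cycling cell markers, and its highest value was 2.93 times its lowest. The ratio of Col15a1 to Col18a1 ran from 2.51 in infarct library 2 to 4.60 in infarct library 3. Several members rested on a handful of fragments. Col6a6, Col9a1 and Col6a5 were at an estimated 0 to 1.23, 0 to 1.26 and 0.978 to 3.43 fragments per library, so their values carry no information on the groups. Col26a1 had an estimated 19.1 fragments in sham library 2 and was at 0 in the other 5 libraries.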
